A study of Homo sapiens with 84 samples.

Results

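Kyse30 is an established cell line of esophageal squamous carcinoma. The libraries described here compared its untreated culture at 6 h (3 libraries, replicates 1, 3, and 4) with untreated culture at 0 h (3 libraries, same replicate numbers), and they were chosen by their sample titles, which makes 6 of 84 libraries of the study. All cultures were plated in serum-containing medium, then starved of serum for a day before time 0, and stayed without serum until harvest, so the 0 h cells were already serum-starved cells and the 6 h cells had gone without serum for 6 h longer. No EGF and no EpEX-Fc (the extracellular part of EpCAM fused to an immunoglobulin Fc) was added to either group. RNA was measured by 3′ RNA-seq, in which reads come from the end of each transcript, and all results rest on 1 cell line. Kyse30 cells given the Fc protein alone for 6 h (3 libraries), untreated Kyse30 cells at 72 h (3 libraries), and untreated cells of the pharyngeal carcinoma line FaDu served for comparison only. The comparison shows how far the untreated reference of the study moved by itself during the first hours of the treatment period.

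Withdrawal of serum takes away growth factors and lipoproteins. Cells that leave the cycle lose transcripts for the G2 and M phases, a block of genes held down in resting cells by the DREAM complex. Cells short of sterols process the SREBP transcription factors, which raise genes for the synthesis and uptake of cholesterol and fatty acids, and cells short of amino acids raise genes for amino acid synthesis and transport through the transcription factor ATF4. These pathways, the p53 targets, the EGFR and ERK genes, and the squamous and mesenchymal genes of this line were among the gene groups that were followed. The groups were chosen with earlier results of these data known, so their values do not test a prediction made beforehand.

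Total counts on genes ranged from 5046165 to 11759799 in the 6 libraries, so that 3 counts, the upper limit that a count of 0 allows, equalled 0.255 to 0.595 counts scaled to a common library size (CPM). These limits cover counting error only. Of 20 squamous markers, EPCAM had 188 to 285 CPM, ITGB4 692 to 1420 CPM, and DSP, a desmosome protein, 303 to 471 CPM. However, the defining markers KRT5 (0.839 to 7.99 CPM), KRT14 (0.479 to 1.54 CPM), and PKP1 (0.14 to 1.74 CPM) were low in all 6 libraries. The 20 squamous markers summed to 3750 to 5700 CPM. Markers of simple epithelium (9 genes, of which 3 were at 0 in all 6 libraries) summed to 6190 to 7700 CPM, more than the squamous markers in each library. Summed markers of fibroblasts (12 genes, at most 51.4 CPM), endothelium (8 genes, at most 4.07 CPM), and blood cells (14 genes, at most 4.19 CPM) were low at both times. Both libraries of replicate 1 stood apart: the 10 most abundant genes held 7.45 to 7.54% of their counts, against 12.3 to 14.2% in replicates 3 and 4, and mitochondrial transcripts summed to 63700 CPM in replicate 1 at 6 h against 127000 and 132000 CPM in replicates 3 and 4. Values without replicate 1 or within each replicate number are given beside the main groups.

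Across all genes, no difference between 6 h and 0 h passed the test. Of 15350 genes tested, 0 were differentially expressed genes (DEGs, |log2FC| over 0.5 and adjusted p-value of at most 0.05 in edgeR's quasi-likelihood test with Benjamini-Hochberg adjustment), which is 0% of the genes. The lowest adjusted p-value was 1, and 355 genes had an unadjusted p-value under 0.05 (2.31% of those tested), 178 of them higher and 177 lower at 6 h. DESeq2 also called 0 genes, with a lowest adjusted p-value of 0.538 and 394 genes at an unadjusted p-value under 0.05. Both fits left out the pairing by replicate number. With the replicate number as a block and only the 6 libraries in edgeR's fit, 0 of 12387 genes were called. The lowest adjusted p-value of that edgeR fit was 0.196, and 916 genes had an unadjusted p-value under 0.05. Only when genes with low counts were kept in the fit were 5 of 27643 genes called, namely MTHFD2, CHAC1, SLC7A11, and MT1E as lower and PIGR as higher, and 31 of the 34 counts of PIGR came from replicate 1 at 6 h. Libraries at 6 h lay above all libraries at 0 h for 576 genes (3.75%) and below them for 641 genes (4.18%). What follows gives the values of named genes and groups, and none of these genes passed the test at 6 h.

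The size of change that these libraries could show depended on the level of the gene. The median standard error (SE) of the log2FC was 0.22 for 1772 genes over 100 CPM and 0.28 for 4589 genes between 20 and 100 CPM. It was 0.45 between 5 and 20 CPM and 1.26 for the 5237 genes under 5 CPM. In the same order, 95% intervals reached 0.43, 0.55, 0.89, and 2.47 on the log2 scale to each side of the estimate for a gene at the median.

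**Figure D1:**
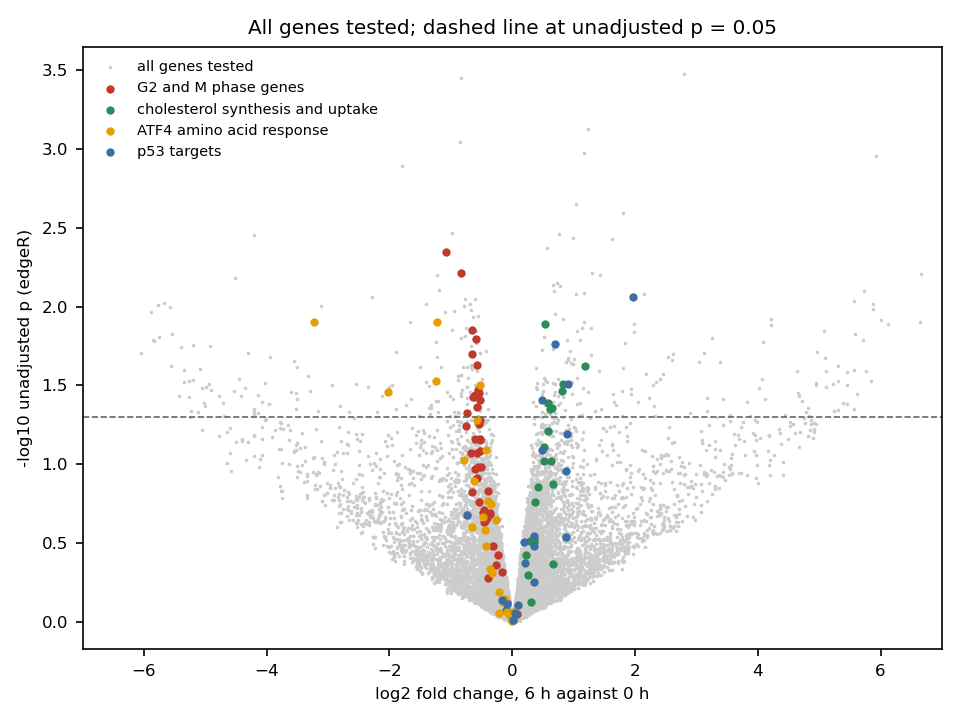
Log2 fold change (x axis, 6 h against 0 h) and -log10 of the unadjusted p-value from edgeR (y axis) for 15350 genes in untreated Kyse30 cells, each point 1 gene. Colored points are members of 4 gene groups, the dashed line marks an unadjusted p-value of 0.05, and G2 and M phase genes sit left of 0 except for 1 of 43, while cholesterol genes sit mostly to the right.

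The 10 genes with the lowest unadjusted p-values, which did not pass the test, comprised 6 that were higher and 4 that were lower at 6 h. INPP5D, a phosphatase of inositol lipids, had 1.12, 0.419, and 1.35 CPM at 0 h and 8.69, 3.84, and 8.14 CPM at 6 h (in this and later series, replicates 1, 3, and 4), with a log2FC of 2.79 ± 0.71 (SE) and an adjusted p-value of 1. The groups did not overlap, and the Fc cultures lay above 0 h as well at 3.26, 4.46, and 5.17 CPM. CDK19, a kinase of the Mediator complex, had 85.9, 62.9, and 62.6 CPM at 0 h and 38.1, 41.3, and 39.8 CPM at 6 h (log2FC -0.83 ± 0.21 SE). Fc cultures had 45.8, 52.6, and 47.3 CPM of CDK19, below each 0 h library. TPP1, a lysosomal protease, had 5.35, 9.02, and 8.86 CPM at 0 h and 19.6, 18.9, and 15.4 CPM at 6 h, and its Fc libraries (10.7, 6.02, and 17.9 CPM) overlapped with 0 h. G2E3, a ubiquitin ligase whose transcript peaks in G2, was lower in all 3 libraries at 6 h (28, 44, and 44.5 CPM) than at 0 h (72.6, 80.7, and 57 CPM). The cytoskeletal adaptor OBSL1 (log2FC 1.17 ± 0.33 SE), the transcription factor HES2 (1.03 ± 0.32), and the collagen lysyl hydroxylase PLOD2 (0.559, 4.82, and 2.31 CPM at 0 h, 10.8, 7.32, and 7.44 CPM at 6 h) were higher in each 6 h library than in any 0 h library. RSRP1 (-0.98 ± 0.31) and SGK494 (-1.79 ± 0.52) were lower in the same way. SEPT3 was at 0 counts in the 0 h libraries and at 0.421 to 1.56 CPM at 6 h, close to the limit of detection.

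Among the lists other than markers of other cell types, the G2 and M phase genes had the lowest median. Of 43 genes tested, 0 passed the test, 42 had a log2FC below 0 (all genes tested, 49.7%), and the median log2FC was -0.54 against 0 over all genes. In bulk RNA, fewer cells in these phases and less of these transcripts per cell cannot be told apart. An unadjusted p-value under 0.05 was reached by 13 of them, all lower at 6 h (all genes, 1.15% lower), and 15 lay below 0 h in each library (all genes, 4.18%). CDCA3 (ENSG00000111665, chr12:6844793-6852066, - strand), an F-box-like protein needed for entry into mitosis, had 59.6, 41.1, and 48.3 CPM at 0 h and 20, 26.6, and 24 CPM at 6 h. Its libraries did not overlap, with a log2FC of -1.08 ± 0.36 (SE) and an adjusted p-value of 1 in edgeR. ECT2, the exchange factor that starts the contractile ring, had 124, 108, and 72.4 CPM at 0 h and 51.8, 73.3, and 44.9 CPM at 6 h (log2FC -0.84 ± 0.29 SE). Replicate 3 at 6 h overlapped with replicate 4 at 0 h for ECT2, although each replicate number was lower at 6 h. KIF23, a kinesin of the central spindle, had 96.7, 52.2, and 43.1 CPM at 0 h and 40.5, 49.2, and 32.1 CPM at 6 h, and its groups overlapped as well (log2FC -0.66 ± 0.26 SE).

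Members of the group with other roles in mitosis had values in the same range. The anaphase activator CDC20 had 214, 163, and 224 CPM at 0 h and 112, 145, and 149 CPM at 6 h. Mitotic cyclins CCNB1 (164, 112, and 112 CPM at 0 h, 98.4, 74.8, and 91.8 CPM at 6 h) and CCNA2 (47.4, 41.1, and 38.7 CPM, then 18.9, 31.8, and 25.7 CPM) did not overlap between times either. For the mitotic kinase PLK1, 163, 228, and 165 CPM at 0 h compared with 105, 151, and 133 CPM at 6 h. PRC1, a bundler of spindle microtubules, was the exception with a log2FC of 0.07 ± 0.56, as its replicate 1 was higher at 6 h (79.8 CPM) than at 0 h (47.4 CPM) and replicates 3 and 4 were lower. FOXM1, the transcription factor of this phase, had a log2FC of -0.09 ± 0.29. Over the 43 genes, the sum was 7720 and 5810 CPM in replicates 3 and 4 at 0 h and 6130 and 4320 CPM at 6 h.

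Within replicate numbers, 41 of 43 G2 and M phase genes were lower at 6 h in replicate 1, 42 in replicate 3, and 43 in replicate 4, where 50.6%, 49.7%, and 47.9% of all genes were lower. The median difference was -0.79 in replicate 1, -0.37 in replicate 3, and -0.43 in replicate 4 on the log2 CPM scale. Without both libraries of replicate 1 the median log2FC of the group was -0.41, and all 43 genes had a value below 0, of which 21 did not overlap (2 against 2, all genes 13.6% lower). Of the S phase genes, 19 of 39 had a value above 0 and 20 below, the median was -0.08, and 0 of 39 reached an unadjusted p-value under 0.05. PRIM1 (log2FC -0.71 ± 0.49 SE), E2F8 (-0.98 ± 0.76), and POLA1 (-0.56 ± 0.44), which act in DNA replication or its control, had the lowest p-values of that list.

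**Figure D2:**
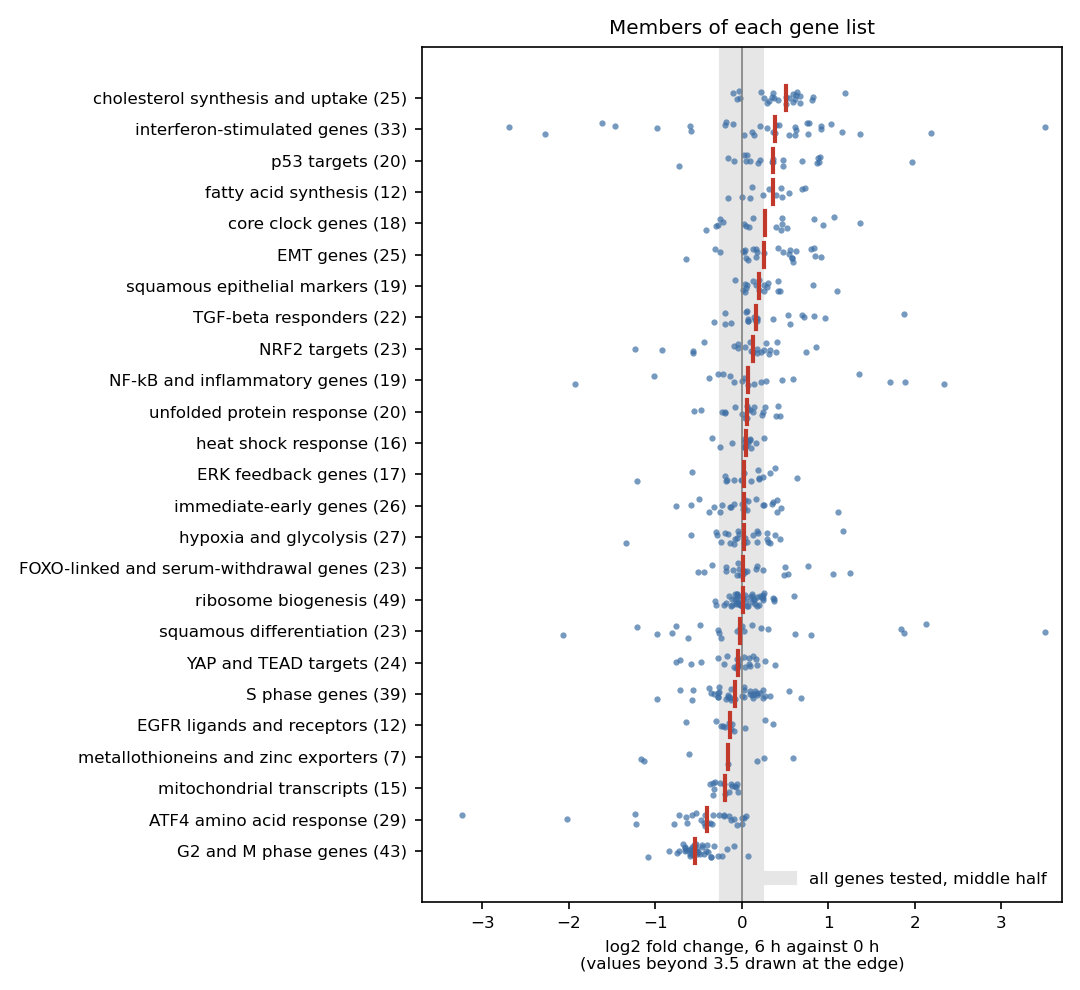
Log2 fold change of untreated Kyse30 cells at 6 h against 0 h (x axis) for each tested member of 25 gene groups (y axis, number of genes in brackets), each point 1 gene and each red line the median. The gray band holds all genes between the lower and upper quartile, and the medians run from -0.54 for G2 and M phase genes to 0.51 for cholesterol genes.

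Promoters of the G2 and M phase genes were inspected for the motif of this gene class, the cell cycle homology region (CHR, TTTGAA), which the DREAM complex binds. The 250 bases before the start in RefSeq (GRCh38.p14) were searched on either strand. TTTGAA was found in 18 of 37 promoters of the group that matched a RefSeq entry (48.6%) and in 13.3% of 35093 promoters. The 35093 hold every distinct promoter of any gene, expressed or not, whereas lists count a single promoter per gene. Shares of lists and of all promoters, here and below, thus come from unlike sets. Stretches of the promoters of ECT2 (chr3:172750551-172750681, + strand) and KIF23 (chr15:69414283-69414310, + strand) are shown 5′ to 3′ as examples of named members that carry it, with TTTGAA in capitals. The stretch of ECT2 lies before the first exon of GENCODE, and the match of KIF23 lies in an exon that GENCODE draws further upstream than RefSeq does. In both genes a CCAAT box, which NF-Y binds, lies close by, inverted in KIF23.
ECT2: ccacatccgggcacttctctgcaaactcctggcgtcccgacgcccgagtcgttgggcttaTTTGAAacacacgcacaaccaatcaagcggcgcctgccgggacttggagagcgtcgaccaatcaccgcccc
KIF23: tgattggcccgTTTGAAatgcgccaggc
CCAAT itself, on either strand, was found in 27 of 37 promoters of the group and in 32% of all promoters. These matches are descriptions of the sequence, and binding was not measured.

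Cholesterol genes were higher at 6 h by their point estimates. All 25 were tested, 0 passed, 21 had a log2FC above 0 (all genes, 50.1%), and the median was 0.51. An unadjusted p-value under 0.05 was found for 7 genes, all higher (all genes, 1.16%), and 4 did not overlap with 0 h (all genes, 3.75%). FDFT1 (squalene synthase), the first enzyme committed to sterols, had 84.4, 128, and 130 CPM at 0 h and 162, 166, and 170 CPM at 6 h, with a log2FC of 0.54 ± 0.21 (SE). Its libraries did not overlap, and the Fc cultures were higher still at 206, 185, and 183 CPM. IDI1, the isomerase of isopentenyl diphosphate, had 19.4, 33.6, and 36.4 CPM at 0 h and 65.5, 55.6, and 36.2 CPM at 6 h, so that replicate 4 hardly differed between times. The sterol sensor INSIG1 had 34.4, 110, and 88.8 CPM at 0 h and 120, 135, and 106 CPM at 6 h, again with the lowest library being replicate 1 at 0 h.

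Fatty acid synthesis genes ran along with them. Of 12 genes, 0 passed the test, 10 had a value above 0, and the median log2FC was 0.35. ACLY, the enzyme that makes cytosolic acetyl-CoA from citrate, had 94, 153, and 121 CPM at 0 h and 205, 229, and 174 CPM at 6 h (log2FC 0.73 ± 0.26 SE, no overlap). FASN, the fatty acid synthase, had 373, 765, and 706 CPM at 0 h and 923, 1110, and 973 CPM at 6 h (0.70 ± 0.32). For SCD, the desaturase of stearic acid, 454, 1100, and 1150 CPM at 0 h compared with 1170, 1280, and 1520 CPM at 6 h (0.55 ± 0.32). In FASN and SCD, replicate 1 at 0 h had the lowest level of the 6 libraries, and the other 0 h libraries lay closer to those at 6 h.

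Replicate 1 had the largest difference in both lipid groups. Within replicate 1 the median difference of the cholesterol genes was 1.05 on the log2 CPM scale, against 0.28 in replicate 3 and 0.16 in replicate 4, and 22, 18, and 17 of 25 genes were higher at 6 h (all genes 46.9%, 50.3%, and 52.1%). Fatty acid genes gave 0.95, 0.20, and 0.14 in the same order. Leaving out replicate 1 at 0 h alone brought the median log2FC of the cholesterol genes to 0.24 and that of the fatty acid genes to 0.15, and leaving out both libraries of replicate 1 gave 0.28 and 0.10. CCAAT, a partner motif of SREBP sites, was found in 15 of 18 cholesterol gene promoters with a RefSeq match (83.3%), whereas the sterol regulatory element in the spelling TCACNCCAC was found in 1 of 18 (0.883% of all promoters). For fatty acid genes, CCAAT was found in 4 of 11 promoters (36.4%), near the 32% of all promoters. It was also found in 60% of promoters of ATF4 genes and 58.8% of those of p53 targets. The promoter of ACLY (chr17:41919023-41919147, - strand) is given as an example with its 2 matches in capitals, the first of them inverted.
ACLY: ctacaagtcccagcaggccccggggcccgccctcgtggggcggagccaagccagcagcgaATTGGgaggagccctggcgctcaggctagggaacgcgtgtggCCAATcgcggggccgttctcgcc
As for the other motifs, no inference on the binding of a factor can be drawn from these letters.

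**Figure D3:**
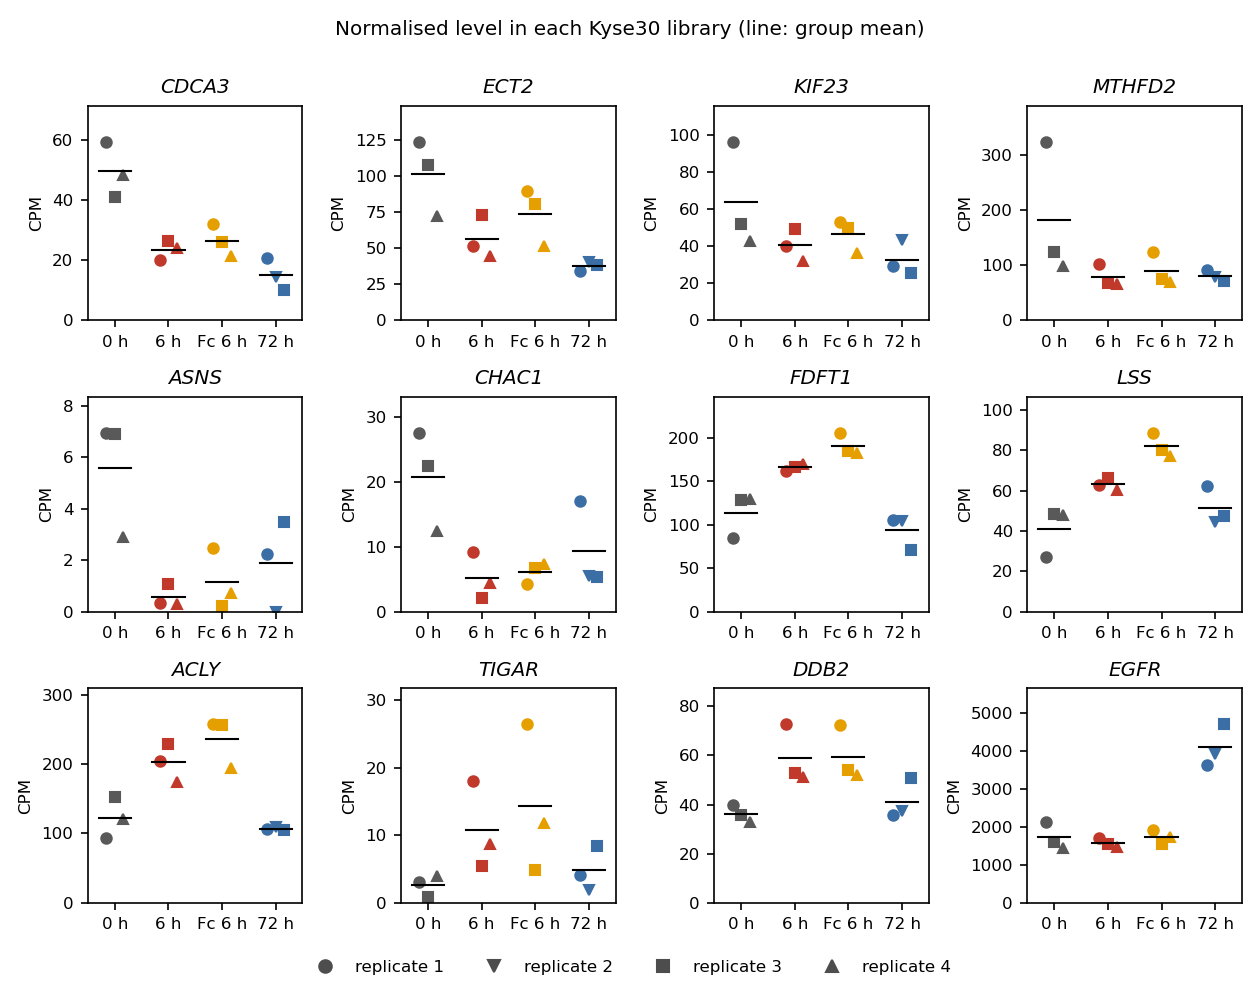
Level of 12 genes (y axis, CPM, linear from 0) in each Kyse30 library at 0 h, 6 h, 6 h with Fc, and 72 h (x axis), each symbol 1 library with its shape giving the replicate number and each line the group mean. MTHFD2 in replicate 1 at 0 h lies at 324 CPM, above all others, and EGFR is at 1440 to 2140 CPM until 6 h and at 3640 to 4720 CPM at 72 h.

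Genes of the ATF4 amino acid response were lower at 6 h by their point estimates. Of 32 genes, 29 were tested and 0 passed, 25 had a value below 0 (all genes, 49.7%), and the median log2FC was -0.40. An unadjusted p-value under 0.05 was reached by 5 genes, all lower (all genes, 1.15%), and 3 did not overlap (all genes, 4.18%). ASNS, asparagine synthetase, had 6.95, 6.92, and 2.89 CPM at 0 h and 0.348, 1.08, and 0.281 CPM at 6 h (log2FC -3.23 ± 1.24 SE). Its 6 h level was under 3 counts in 2 of 3 libraries. MTHFD2 (ENSG00000065911, chr2:74198562-74217565, + strand), a mitochondrial enzyme of one-carbon metabolism, had 324, 124, and 98 CPM at 0 h and 102, 67.6, and 65.9 CPM at 6 h (-1.22 ± 0.47). SLC7A11, the cystine importer, had 153, 78.2, and 47.7 CPM at 0 h and 56, 23.7, and 38.9 CPM at 6 h (-1.24 ± 0.55). For CHAC1, which breaks down glutathione, 27.6, 22.4, and 12.5 CPM at 0 h compared with 9.21, 2.16, and 4.35 CPM at 6 h (-2.02 ± 0.93), with no overlap. ATF4 itself had 399, 414, and 257 CPM at 0 h and 230, 318, and 261 CPM at 6 h, which overlapped (-0.40 ± 0.29).

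In MTHFD2 and SLC7A11, replicate 1 at 0 h was the highest of the 6 libraries, and each replicate number was lower at 6 h. The median difference of the 29 genes was -0.54 within replicate 1, -0.38 within replicate 3, and -0.05 within replicate 4, with 25, 25, and 16 genes lower at 6 h. Leaving out replicate 1 at 0 h moved the median log2FC from -0.40 to -0.17, and leaving out both libraries of replicate 1 moved it to -0.25. With all genes of low counts kept in the fit, MTHFD2 (edgeR adjusted p-value 0.00598), CHAC1 (0.00371), and SLC7A11 (0.0219) passed the test. Their log2FC was almost the same in both fits, but the SE was 0.24, 0.38, and 0.27 in that fit against 0.47, 0.93, and 0.55 with the filter. The element that ATF4 binds with C/EBP partners, spelled TGATGNAA, was found in 2 of 20 promoters of the group with a RefSeq match (3.15% of all promoters), both of them in genes that did not overlap between times. Capitals mark it in ASNS (chr7:97872459-97872486, - strand) and, inverted, in CHAC1 (chr15:40953252-40953279, + strand), both shown because these genes had the lowest log2FC of the group. Both matches lie in an exon of GENCODE, upstream of the start in RefSeq.
ASNS: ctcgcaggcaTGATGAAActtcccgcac
CHAC1: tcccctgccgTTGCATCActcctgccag
The 4 motifs share no common core, and each was searched on both strands.

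Among the stress pathways, targets of p53 were higher by their point estimates. All 20 were tested, 0 passed, 17 had a value above 0, and the median log2FC was 0.36. TIGAR, which lowers glycolytic flux, had 3.12, 0.839, and 4.04 CPM at 0 h and 18.1, 5.4, and 8.7 CPM at 6 h (log2FC 1.97 ± 0.71 SE, no overlap). DDB2, a sensor of DNA damage by ultraviolet light, had 39.9, 35.9, and 32.9 CPM at 0 h and 72.8, 52.9, and 51.2 CPM at 6 h (0.70 ± 0.28, no overlap). RRM2B, a subunit of ribonucleotide reductase, had 13.3, 17.8, and 9.43 CPM at 0 h and 35.6, 22.8, and 17.3 CPM at 6 h (0.90 ± 0.40). The CDK inhibitor CDKN1A had 67.3, 93.3, and 84.9 CPM at 0 h and 149, 112, and 194 CPM at 6 h. These 4 genes were higher at 6 h in each replicate number, and 5 of 20 members did not overlap (all genes, 3.75%). Within replicates 1, 3, and 4 the median difference was 0.33, 0.26, and 0.52, so that replicate 1 was not the highest. Without both libraries of replicate 1 the median log2FC was 0.34, whereas leaving out replicate 1 at 0 h alone moved it to 0.23. The mean summed level of the group was 813 ± 53.5 CPM (SD, n = 3) at 0 h and 979 ± 134 CPM at 6 h.

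Other stress groups had medians near 0. For the unfolded protein response, 0 of 20 genes reached an unadjusted p-value under 0.05 (median log2FC 0.06), with ATF6 (-0.47 ± 0.27 SE), CALR (0.39 ± 0.25), and DNAJC3 (0.44 ± 0.29) having the lowest p-values. Heat shock genes gave 0.05 over 16 genes, and their chaperone HSPD1 had a log2FC of -0.34 ± 0.24, CHORDC1 -0.25 ± 0.41, and HSPA1B 0.26 ± 0.52. Hypoxia and glycolysis genes gave 0.02 over 27 genes, with SLC2A3 at -1.34 ± 1.03, VEGFA at -0.59 ± 0.51, and HK1 at 0.33 ± 0.30. FOXO-linked and serum-withdrawal genes gave 0.01 over 23 genes. Among the latter, PIK3IP1, an inhibitor of PI3K, had 5.91, 9.23, and 8.28 CPM at 0 h and 16.5, 14.4, and 17.1 CPM at 6 h with no overlap, and PDK4 (1.25 ± 0.86) and SESN1 (0.53 ± 0.55) followed. NRF2 targets had a median of 0.13 over 23 genes, and besides SLC7A11 the transporter ABCC3 (-0.56 ± 0.30) and UGDH (-0.44 ± 0.28) had the lowest p-values. Ribosome biogenesis genes had a median of 0.01 over 49 genes, with NOC4L (0.60 ± 0.36), DDX10 (0.37 ± 0.31), and LTV1 (0.37 ± 0.34) named by p-value.

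Metallothioneins, small proteins that bind zinc, varied between replicates at 0 h. MT1E had 449, 163, and 73 CPM at 0 h and 209, 55.9, and 49.9 CPM at 6 h, and MT2A had 1390, 1070, and 638 CPM at 0 h and 880, 659, and 494 CPM at 6 h. Both were lower at 6 h within each replicate number, whereas their groups overlapped (log2FC -1.13 ± 0.72 and -0.61 ± 0.39 SE). As close paralogs, these genes may share reads, which leaves their separate counts uncertain. MT1X followed at -1.17 ± 0.64, and the list of 7 tested genes with zinc exporters had a median of -0.16. Mitochondrial transcripts had a value below 0 in 15 of 15 genes (median -0.20), 0 of which reached an unadjusted p-value under 0.05. Of these, MT-ND1 was at -0.33 ± 0.35, MT-ND6 at -0.37 ± 0.41, and MT-CO1 at -0.25 ± 0.29.

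EGFR (ENSG00000146648, chr7:55019021-55211628, + strand), the receptor at the center of the study, had 2140, 1600, and 1440 CPM at 0 h and 1720, 1560, and 1480 CPM at 6 h (log2FC -0.12 ± 0.18 SE, adjusted p-value 1 in edgeR). EPCAM had 280, 192, and 188 CPM at 0 h and 285, 195, and 201 CPM at 6 h (0.04 ± 0.23). Both genes differed by less between times than between replicate 1 and the others. In the list of EGFR ligands and receptors (12 tested, median -0.14), HBEGF, a ligand shed from the membrane, had 40, 27.9, and 26.8 CPM at 0 h and 23.8, 16.3, and 20.8 CPM at 6 h. ERBB2, the partner receptor, was at -0.22 ± 0.34. Feedback genes of ERK had a median of 0.03 over 17 genes, among them SPRY4 (14.5, 7.34, and 6.35 CPM, then 3.3, 5.76, and 3.23 CPM, no overlap), DUSP7 (0.64 ± 0.69), and SPRY2 (0.38 ± 0.42).

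Immediate-early genes, which serum and EGF raise within minutes, had a median of 0.03 over 26 genes, and 0 of 26 reached an unadjusted p-value under 0.05. The replicates went in opposite directions, with a median difference of 0.44 within replicate 1 and of -0.15 and -0.22 within replicates 3 and 4. With all 3 replicates, 1 of the 26 genes lay below 0 h in each library (all genes, 4.18%) and 0 lay above (all genes, 3.75%). Without replicate 1, 8 of the 26 genes lay below 0 h in each library (all genes, 13.6%) and 3 lay above (all genes, 13.8%). DUSP1, a phosphatase of MAP kinases, had 15.3, 30.8, and 26.4 CPM at 0 h and 13.9, 15.3, and 13.2 CPM at 6 h (-0.76 ± 0.48). EGR1 had 180, 381, and 714 CPM at 0 h and 652, 483, and 602 CPM at 6 h, a spread at 0 h that held the range at 6 h (0.45 ± 0.34). KLF4 was at -0.59 ± 0.51. YAP and TEAD targets had a median of -0.04, with NUAK2 at -0.59 ± 0.52, ANKRD1 at -0.76 ± 0.72, and RBMS3 at -0.47 ± 0.54. For TGF-beta responders the median was 0.16, and the lowest p-values were those of HES1 (176, 294, and 513 CPM at 0 h, 868, 485, and 560 CPM at 6 h), SMAD7 (1.87 ± 1.01), and BHLHE40 (0.83 ± 0.47).

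Core clock genes had a median log2FC of 0.26, with 13 of 18 tested genes above 0. PER1, a repressor of the clock that also answers to glucocorticoids and cAMP, had 10.5, 12.2, and 12.1 CPM at 0 h and 29, 16.5, and 21.3 CPM at 6 h, which did not overlap (0.94 ± 0.39). BHLHE40, in both the clock and TGF-beta lists, had 3.35, 4.4, and 7.7 CPM at 0 h and 9.38, 9.23, and 8.56 CPM at 6 h, and BHLHE41 was at 1.07 ± 0.77. Interferon-stimulated genes had a median of 0.38, but 3 of 33 lay below 0 h in each library (all genes, 4.18%) and 0 lay above (all genes, 3.75%). IFIT3 had 17.6, 24.3, and 9.05 CPM at 0 h and 57.2, 32.9, and 23.7 CPM at 6 h, higher in each replicate number but overlapping between groups (1.16 ± 0.52). ISG15 (0.78 ± 0.41) and RSAD2, which had at most 1.91 CPM, were next. In the NF-kB and inflammatory list (median 0.07 over 19 genes), NFKBIZ had 14.5, 17.4, and 20.6 CPM at 0 h and 5.56, 8.39, and 11.9 CPM at 6 h with no overlap, while TNFAIP3 (1.35 ± 0.66) and IL1A (2.34 ± 1.04) had values above 0.

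Genes of EMT, the transition studied with EGF in these cells, had 22 of 25 values above 0 and a median of 0.26. In the main fit, which leaves out the pairing by replicate number, 0 of 25 reached an unadjusted p-value under 0.05. With the replicate number as a block in the fit, ITGB4 had an unadjusted p-value of 0.0424 in edgeR. No gene passed the test in that fit either. MMP14, a membrane-bound protease, had 13.7, 17, and 38.9 CPM at 0 h and 28.5, 27.2, and 47.4 CPM at 6 h. ITGB4, the integrin of hemidesmosomes, had 692, 888, and 988 CPM at 0 h and 912, 1120, and 1420 CPM at 6 h (0.42 ± 0.30), and CDH2 was at 0.92 ± 0.64. Each replicate number of MMP14 and ITGB4 was higher at 6 h. The median difference of the EMT list was 0.73 within replicate 1 and 0.07 and 0.05 within replicates 3 and 4. Fibroblast markers had the same order, with a median difference of 1.88, -0.14, and -0.30 over 6 tested genes, and their sum was 13.5, 14.5, and 31.8 CPM at 0 h and 51.4, 16.1, and 23.4 CPM at 6 h. Of the 12 markers, 2 were at 0 in each library, and the part of these transcripts in the EMT values was not tested. Squamous epithelial markers had a median of 0.20 over 19 genes, with KRT5 at 1.10 ± 0.72 and SFN at 0.42 ± 0.34. Squamous differentiation genes had a median of -0.02 over 23 genes, and KRT6B (at most 1.91 CPM), SPRR2A (at most 2.28 CPM), and CNFN (0.80 ± 0.49) had the lowest p-values.

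**Figure D4:**
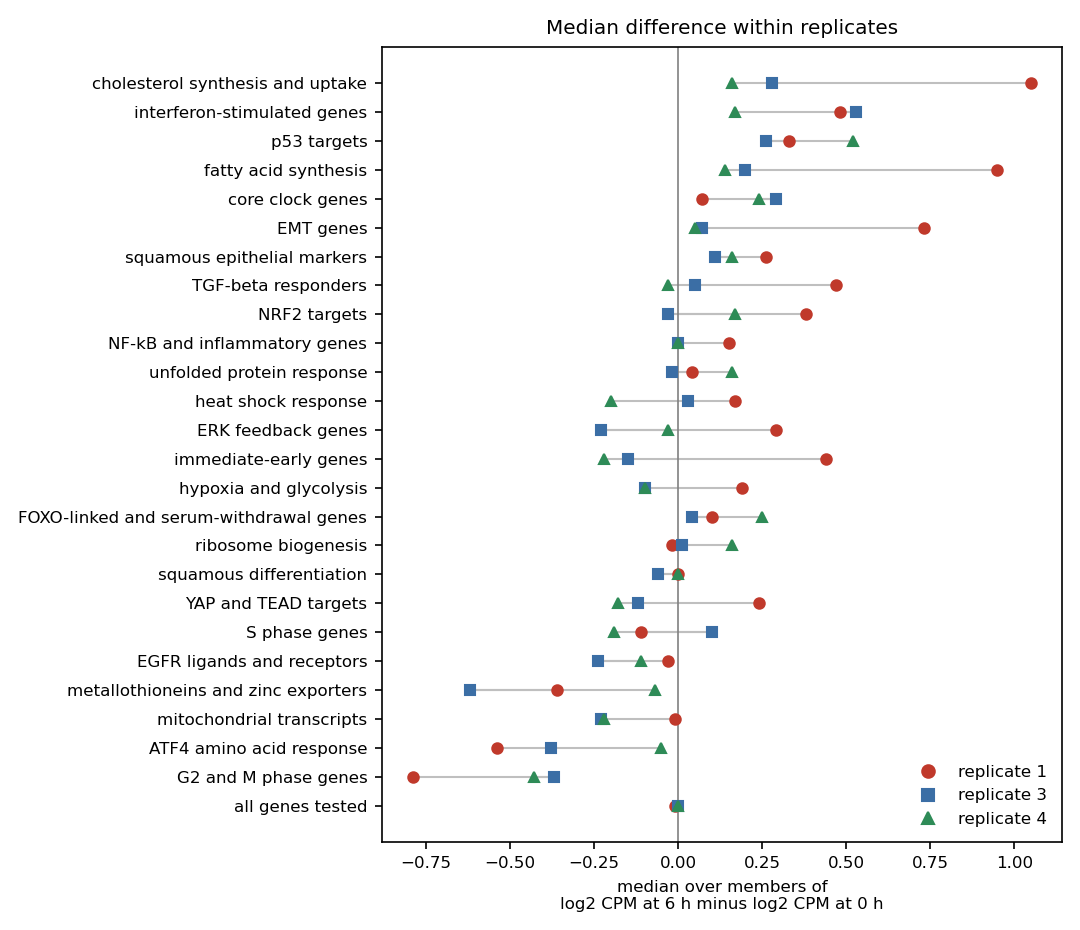
Median over the members of each gene group (y axis) of log2 CPM at 6 h minus log2 CPM at 0 h (x axis) within replicates 1, 3, and 4 of untreated Kyse30 cells. G2 and M phase genes lie at -0.79, -0.37, and -0.43, whereas cholesterol genes lie at 1.05 in replicate 1 and at 0.28 and 0.16 in the others.

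The Fc cultures gave a further set of 6 h libraries, compared with the same 0 h libraries, so the contrasts share their reference and are set side by side only. Fc at 6 h had 0 DEGs against 0 h (665 genes at an unadjusted p-value under 0.05) and 0 DEGs against untreated cells at 6 h (435 such genes). Median log2FC against 0 h with Fc was -0.48 for G2 and M phase genes, with 17 of 43 below 0 h in each library (all genes, 5.62%). It was 0.60 for cholesterol genes, with 10 of 25 above 0 h in each library (all genes, 4.57%), and 0.50 for fatty acid genes. ATF4 genes had -0.60, with 7 of 29 below 0 h in each library (all genes, 5.62%), and p53 targets had 0.19. With Fc, 12 of 20 p53 targets had a value above 0 and 8 below, against 17 and 3 in untreated cells. LSS, lanosterol synthase, had 27.3, 48.4, and 47.7 CPM at 0 h, 62.6, 66.3, and 60.3 CPM at 6 h, and 88.6, 80.2, and 76.9 CPM with Fc.

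At 72 h, 437 genes were called against 0 h (2.85%, of which 213 or 1.39% of all genes were higher) and 238 against 6 h (1.55%). G2 and M phase genes had 38 of 43 members called lower at 72 h against 0 h in edgeR's test (all genes, 1.46% lower) with a median log2FC of -1.52, and 9 of 43 were lower against 6 h (all genes, 0.775%). CDCA3 was at 20.7, 14.5, and 10 CPM at 72 h (replicates 1, 2, and 3) and fell by 1.71 on the log2 scale against 0 h (edgeR adjusted p-value 0.00397), whereas its difference from 6 h was -0.63 (adjusted p-value 0.465). CDC20 fell by 1.78 against 0 h (edgeR adjusted p-value 2.14e-05). Cholesterol genes had a median of -0.05 against 0 h and -0.42 against 6 h, and FDFT1 was lower than at 6 h by a log2FC of -0.83 (edgeR adjusted p-value 0.0288). Its levels at 72 h were 106, 104, and 70.8 CPM. ATF4 genes stayed at a median of -0.54 against 0 h and 0.05 against 6 h, with 2 of 29 called lower against 0 h. The p53 targets had -0.06 against 0 h and -0.49 against 6 h, and RRM2B fell by 1.70 between 6 h and 72 h (edgeR adjusted p-value 0.0227). EGFR rose to 3640, 3940, and 4720 CPM, with a log2FC of 1.25 against 0 h (edgeR adjusted p-value 4.68e-05) and 1.37 against 6 h (2.01e-05). Replicate 2 has no counterpart at 0 h or 6 h, so 72 h was not matched to them by number.

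In FaDu cells, replicates 3 and 4 gave 2 libraries at 6 h and 1 library at 0 h, where the lone library was assumed to vary like the other groups. Untreated FaDu libraries of replicates 1 and 2 were left out, as earlier results of these data had set these replicates apart. With all FaDu libraries in the fit, 0 of 18533 genes were called between 6 h and 0 h. The values below are from replicates 3 and 4. The median log2FC was -0.12 for 43 G2 and M phase genes, 0.18 for 25 cholesterol genes, 0.14 for 12 fatty acid genes, 0.00 for 29 ATF4 genes, and 0.13 for 19 p53 targets. Of 16022 genes, 0 were DEGs in FaDu cells (619 at an unadjusted p-value under 0.05). The difference between the lines was tested directly as an interaction, which called 0 of 19634 genes (410 at an unadjusted p-value under 0.05). For MTHFD2 the log2FC was -1.22 in Kyse30 and -0.20 in FaDu cells, a difference of -1.03 with an adjusted p-value of 1 in edgeR. A difference between the lines was thus not detectable with these libraries.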

How the data were processed

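Per the labels, total RNA of Kyse30 and FaDu cultures was made into QuantSeq 3′ FWD libraries. The deposited files hold read counts per gene for 58395 gene identifiers, which the authors made with STAR and HTSeq on GRCh38/hg38 according to the submitters' processing notes (versions not given in the sources used here). Reads on no gene, ambiguous, or not unique (40.8 to 49% of the tallied reads per library) stayed out. Molecular identifiers were not stated, so PCR copies may count as reads. Symbols and positions come from GENCODE 29 (GRCh38) for 58275 identifiers.

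Counts of all 43 Kyse30 libraries (13 groups) were fitted with edgeR 4.0.16 (R 4.3.3) by its quasi-likelihood test with TMM normalization, filterByExpr (minimum count 10, minimum total 15), and Benjamini-Hochberg adjustment. Alternatives were DESeq2 1.42.0, RLE size factors, no filter, a minimum mean of 5 CPM, a fit of the 6 libraries alone, Fc libraries as or with the 6 h group, a replicate block, and each library left out. Replicate numbers come from the titles. Deviations from the group means correlated at 0.104, 0.198, and 0.212 between libraries of the same number and at -0.15 to -0.0445 between others, so the numbers were taken to pair the libraries. Neither the labels nor the paper's methods say that replicates of the RNA-seq are separate cultures. A figure legend of the paper names independent experiments for cell pictures of the same treatments and times, but does not say so for the RNA-seq samples. The p-values thus measure only the spread between these libraries, which may be technical. No 2 libraries were duplicates. Unadjusted p-values are from the same edgeR fit, without the replicate block unless stated.

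Named genes were the 3 with the lowest unadjusted p-value in each of 29 lists, the 10 with the lowest over all genes, EGFR, and EPCAM, as fewer than 10 were called. The lists of fibroblast, endothelial, blood cell, and simple epithelium markers are given as groups only, and their members are not named here. CDC20, CCNB1, CCNA2, PLK1, PRC1, FOXM1, INSIG1, LSS, CHAC1, ATF4, and CDKN1A were added after their values were seen. Members and lists were chosen with earlier results of these data known. One member of the cholesterol list is not reported here by name.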

Additional observations from a re-analysis of the deposited data

How the results depend on the processing

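The count of 0 DEGs was found with DESeq2, RLE size factors, a minimum mean of 5 CPM, a fit of the 6 libraries alone, Fc libraries in place of or together with untreated cells, no minimum fold, and each library left out. In the fit without a filter on low counts, 5 genes passed (1 up, 4 down). Of these, 3 were members of the ATF4 list, among them SLC7A11, which is also in the NRF2 list. MT1E is in the metallothionein list, and PIGR is in none of the lists. MTHFD2 had a log2FC of -1.23, SLC7A11 of -1.25, and MT1E of -1.14 in that fit, with smaller SEs than in the filtered fit, and the cause was not tested. With the replicate block, as the numbers pair the libraries, 0 genes passed in edgeR (463 of 15350 at an unadjusted p-value under 0.05). With the block and only the 6 libraries, 0 genes passed as well (916 of 12387 at an unadjusted p-value under 0.05). DESeq2 with the block, added after seeing the data, had a lowest adjusted p-value of 0.0652. Over these settings the genes at an unadjusted p-value under 0.05 ranged from 123 without both libraries of replicate 1 to 916. For 72 h, DESeq2 called 706 genes against 0 h and 475 against 6 h, and the replicate block called 410 against 6 h, where edgeR had 437 and 238.

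Medians of the gene lists were counted as unchanged in 416 of 425 alternatives and as moved in 9. This count does not mean that medians kept their size or sign, or stayed within the range of the replicates. Without replicate 1 at 0 h, the median went from 0.51 to 0.24 for cholesterol genes and from -0.40 to -0.17 for ATF4 genes. With Fc in place of untreated cells, it went from 0.05 to -0.11 for heat shock genes and from 0.01 to -0.15 for ribosome biogenesis. For EGFR ligands and receptors it went from -0.14 to 0.01 with Fc. For p53 targets the median was 0.19 with Fc in place of untreated cells, against 0.26 to 0.52 within replicates. With Fc in place of untreated cells, the median was 0.04 for YAP and TEAD targets (also 0.04 with both together) and -0.94 for metallothioneins and zinc exporters, which had -0.31 with both together and -0.38 at a mean of at least 5 CPM. Without both libraries of replicate 1 it was -0.23 for YAP and TEAD targets and 0.10 for fatty acid synthesis. With single libraries left out, YAP and TEAD targets ranged from -0.20 to 0.02, squamous differentiation from -0.20 to 0.21, and fatty acid synthesis from 0.15 to 0.50.

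Signs turned for 18 of 83 named genes, the markers of other cell types left aside. With Fc in place of untreated cells these were BHLHE41 (-0.84), CNFN (-0.03), DDX10 (-0.16), EGFR (0.01), LTV1 (-0.17), PRIM1 (0.05), SLC2A3 (0.38), and SPRY2 (-0.03). Without both libraries of replicate 1 they were DUSP7 (-0.14), EGR1 (-0.01), and POLA1 (0.08). Leaving out single libraries, EGFR ranged from -0.24 to 0.06, EPCAM from -0.15 to 0.25, ERBB2 from -0.47 to 0.08, DUSP7 from -0.08 to 0.99, SPRY2 from -0.05 to 0.88, CHORDC1 from -0.51 to 0.08, ANKRD1 from -1.33 to 0.16, MT-ND6 from -0.69 to 0.10, MT-CO1 from -0.52 to 0.01, KRT5 from -0.10 to 1.56, EGR1 from 0.07 to 1.05, and POLA1 from -0.95 to -0.10.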

Other observations

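Cytosolic aminoacyl-tRNA synthetases, which charge tRNAs with amino acids and partly belong to the ATF4 targets, were compiled as a list after values of these data had been seen. Of 20 genes, 0 passed edgeR's test, 15 had a log2FC below 0 (all genes tested, 49.7%), and the median was -0.33. An unadjusted p-value under 0.05 was reached by 5 of them, all lower (all genes, 1.15% lower). TARS had 992, 889, and 506 CPM at 0 h and 449, 604, and 450 CPM at 6 h in replicates 1, 3, and 4, with a log2FC of -0.67 ± 0.25 (SE), and it fell by 1.12 at 72 h against 0 h (edgeR adjusted p-value 0.00646). CARS had 160, 153, and 110 CPM at 0 h and 77.7, 95, and 95.1 CPM at 6 h without overlap. Synthetases KARS (0.02 ± 0.17) and QARS (0.03 ± 0.24) had values near 0. The median difference was -0.61 within replicate 1, -0.23 within replicate 3, and -0.04 within replicate 4.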
